A study of Mus musculus with 11 samples.

Results

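The sensory hair cell reads sound through a bundle of actin-filled stereocilia, and 39 genes that build this bundle, its transduction channel or the hair cell synapse were followed here in 3 kinds of mouse samples on single-colour arrays. They were listed by name, and 1 probe stood for each gene, the one with the highest mean signal over the arrays. All 39 were found among the 20284 genes that the array's probes could be matched to. The groups were otospheres (OS), cochlear sensory epithelium (CSE) and embryonic stem cells (ESCs). CSE was dissected from newborn ICR mice (postnatal day 1) in batches of 20 cochleae, and the spiral ligament and stria vascularis were taken off. Otospheres were floating spheres grown from dissociated CSE cells of the same kind, passaged 1 time and strained to keep solid spheres, in medium with basic fibroblast growth factor and insulin-like growth factor 1. The ESCs were the lines G4-2 and D3 at passage 13, grown without feeder cells. Each dissection pooled the cochleae of several mice, and each ESC sample was 1 line. The comparisons asked how much of this hair cell equipment was measured in otospheres, relative to the tissue they came from and to cells of no cochlear origin.

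There were 6 OS, 3 CSE and 2 ESC arrays on 2 slides. OS1 to OS3, CSE1, CSE2 and ES1 shared the first slide, and OS4 to OS6, CSE3 and ES2 shared the second. Between 55.1% and 71.6% of the spots on an array were well above background, and no spot was saturated. The ratio of the spread between 2 arrays to that between repeated spots was 0.842 for OS1 and OS2 and 0.394 for OS4 and OS5. Both pairs differed by less than this noise, so each was counted as 1 sample, which left 4 OS, 3 CSE and 2 ESC samples. The labels do not say that the samples came from separate cultures, so the p-values measure the spread between these samples, which may be technical. The paper's methods mention technical duplicates (n = 2) without saying which arrays they were. Marker lists bore on the labels in part. Each of 8 hair cell regulators was well above background on all 3 CSE arrays, but each was so on at least 5 OS arrays too, and Barhl1, Lhx3, Insm1 and Rasd2 were so on both ESC arrays. Of 6 pluripotency genes, 5 were higher in ESCs than in otospheres and than in CSE. On its brightest probe the sixth, Nanog, had mean log2 signals of 8.38 in ESCs, 9.82 in otospheres and 10.03 in CSE. The paper lists Nanog among the genes high in ESCs alone, and this 1 probe did not show that order. The paper's ESC group also held arrays from other series, and its staining detected no NANOG protein in otospheres. Other Nanog probes are not reported here, and how well this probe reads Nanog was not tested. OS1-3 and OS4-6 lay on different slides, and results are also given for each of these sets.

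In a hair cell, unconventional myosins carry cargo up the stereocilia, crosslinkers and capping proteins set the length and stiffness of the actin core, and tip links made of cadherin 23 and protocadherin 15 pull on a channel complex at the stereocilium tip. Scaffold proteins first known from Usher syndrome, a disease of deafness and blindness, anchor these links. At the cell's base, calcium entry through a voltage-gated channel drives release of glutamate by otoferlin, while calcium-binding proteins buffer the signal and nicotinic receptors receive efferent input from the brainstem. At birth the mouse cochlea is still immature, and its hair cells do not yet hear.

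Of the 39 genes, 14 were lower in otospheres than in CSE and 1, oncomodulin (Ocm), was higher. A limma model of the 3 group means was used, with Benjamini-Hochberg adjusted p under 0.05 over all 47997 kept probes. Among all 18561 genes tested, 10.3% were lower and 7.17% were higher by the same rule. The 14 genes were 2.40-fold to 13.8-fold lower, parvalbumin (Pvalb) and harmonin (Ush1c) by the most. Cdh23, 1 of the 14, was kept for testing through its CSE arrays, so the filter favoured its call. The other 24 did not pass. The median difference of the 39, OS minus CSE, was -0.88 on the log2 scale, against -0.01 for all genes tested, and 35 of the 39 differences were below 0. In 20 genes every OS sample lay below every CSE sample, and in 1 every OS sample lay above, where 18.9% and 14.1% of all genes did so. In a bulk sample, fewer hair cells and less RNA per hair cell cannot be told apart. Within the first slide the median difference was -1.34 (2 OS and 2 CSE samples). Within the second it was -0.66 (2 OS samples and 1 CSE sample). The 14 genes were below 0 on both, which was fixed in advance, as all their OS samples lay below all their CSE samples. With slide as a block in the limma fit, the 14 stayed past the threshold and 6 more joined them: Myo3a (adjusted p = 0.0382), Xirp2 (0.0156), Clic5 (0.0487), Fscn2 (0.0101), Lhfpl5 (0.0433) and Clrn1 (0.00746). The count of lower genes fell to 9 without CSE1, 9 without CSE2 and 8 without CSE3.

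**Figure D1:**
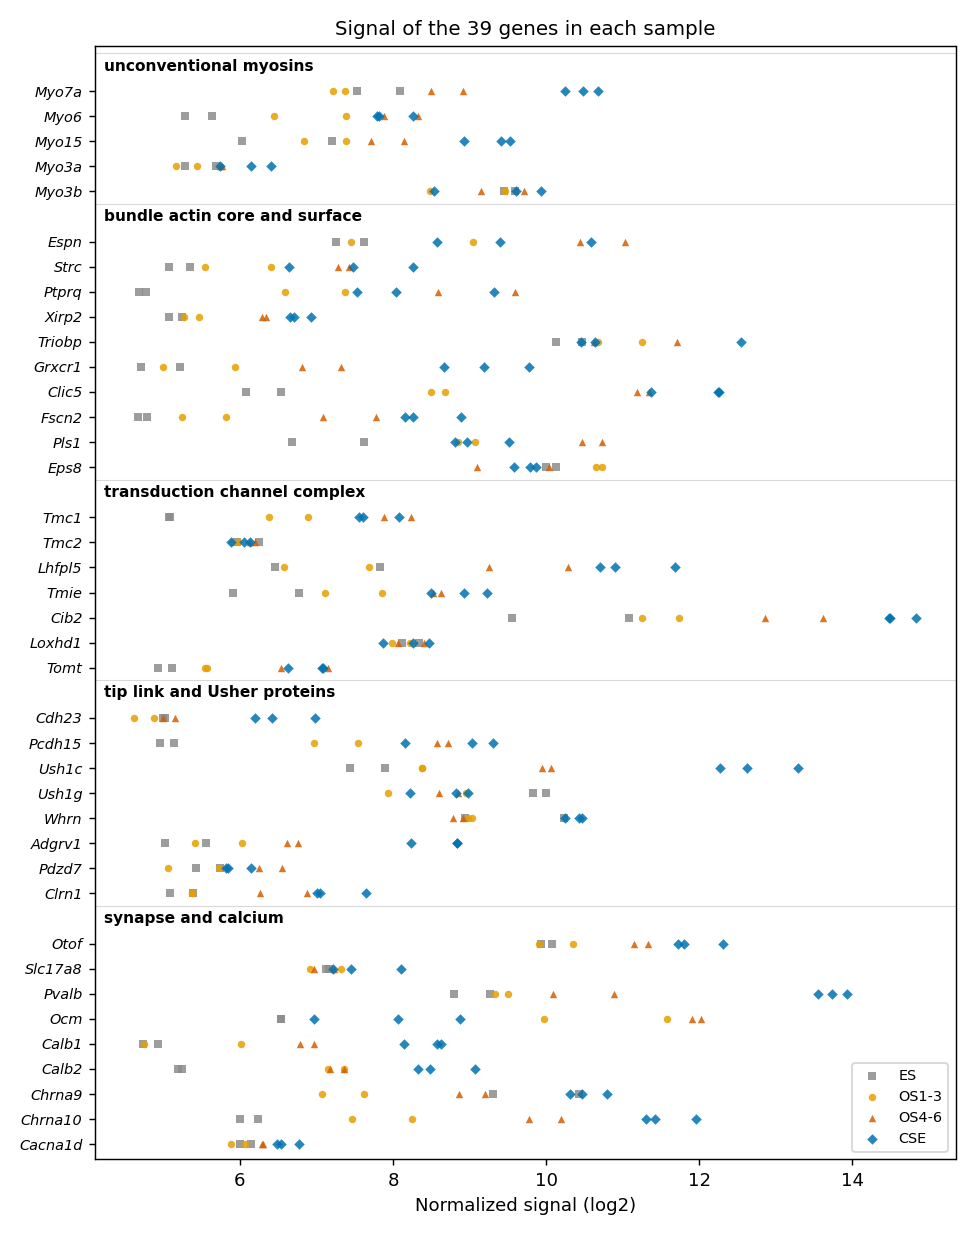
Normalized log2 signal of each of the 39 genes (rows, grouped by role) in the 2 ESC samples (grey squares), the 2 samples of OS1-3 (light orange circles), the 2 samples of OS4-6 (dark orange triangles) and the 3 CSE samples (blue diamonds). Pvalb, Ush1c, Adgrv1 and Grxcr1 show CSE well to the right of every otosphere, Ocm shows the reverse, and Tmc2 and Loxhd1 show the groups on top of each other.

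**Figure D2:**
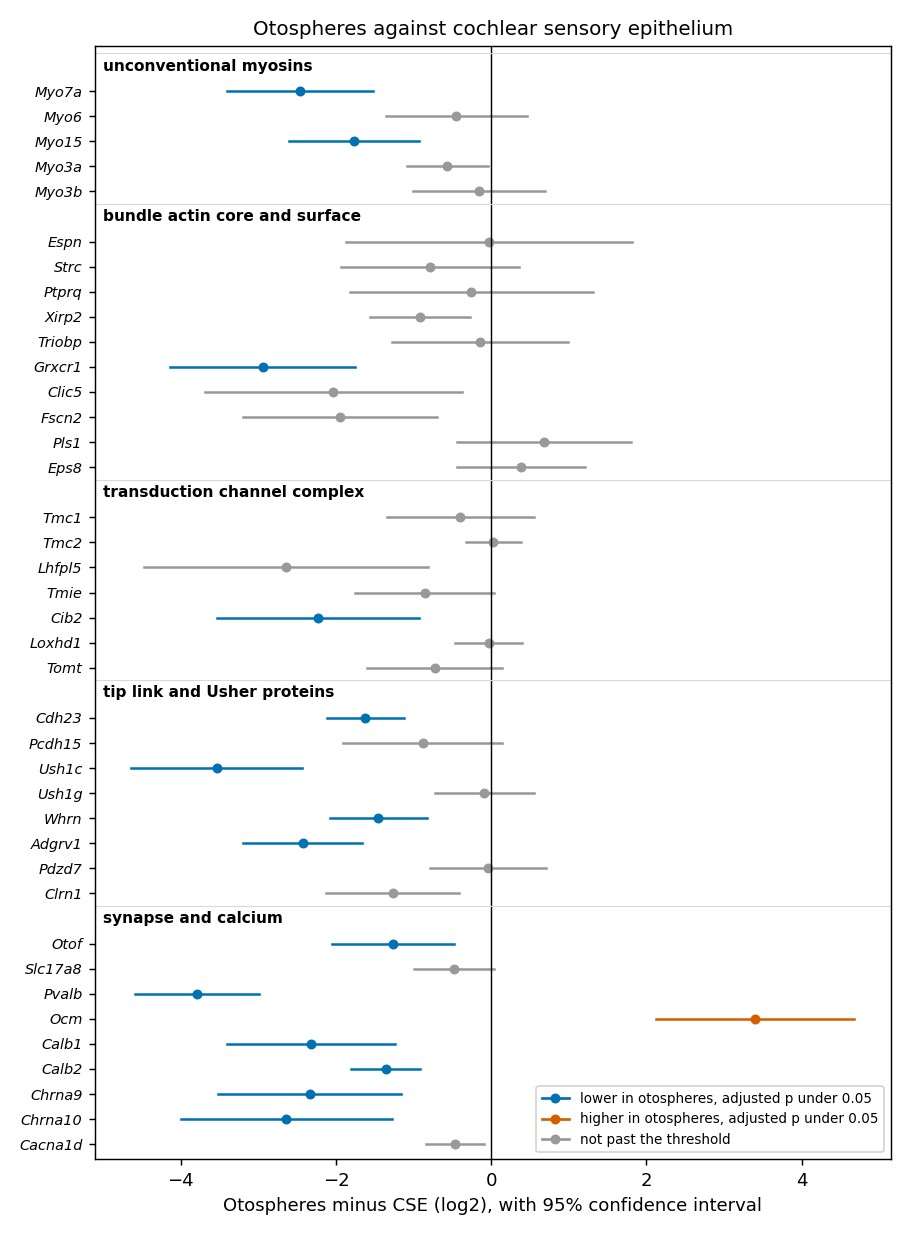
Difference between otospheres and CSE in log2 signal (points) with its 95% confidence interval from limma (lines) for the 39 genes. The 14 genes past the threshold and lower in otospheres are blue, Ocm, higher in otospheres, is orange, and the 24 others are grey.

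Among the 5 unconventional myosins, Myo7a and Myo15 were lower in otospheres, where 10.3% of all genes tested were lower. The other 3 did not pass. Myo7a, the myosin of Usher syndrome type 1B and a standard hair cell marker, had log2 signals of 7.37 (OS1 and OS2), 7.22 (OS3), 8.5 (OS4 and OS5) and 8.92 (OS6) in otospheres, 10.24, 10.48 and 10.68 in CSE and 8.08 and 7.52 in ESCs. All otospheres lay below all CSE samples, and both samples of OS1-3 lay below both ESC samples. The difference from CSE was -2.47 ± 0.41 (SE; 4 OS and 3 CSE samples), or 5.53-fold, with a limma adjusted p of 0.00586. Myo15, which delivers whirlin and Eps8 to stereocilium tips, was at 7.38, 6.83, 8.14 and 7.71 in the 4 OS samples and at 8.92, 9.41 and 9.52 in CSE, with no overlap. It was lower by -1.77 ± 0.37 (limma adjusted p = 0.0162). Myo6, which holds the base of the stereocilia, differed by -0.45 with a 95% interval of -1.35 to 0.46. Myo3a differed by -0.56 (-1.08 to -0.05, adjusted p = 0.180). Its relative Myo3b differed by -0.16 (-1.01 to 0.70), and had a mean log2 signal of 9.52 in ESCs, 9.20 in otospheres and 9.36 in CSE.

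Of the 10 genes of the bundle's actin core and surface, Grxcr1 was the 1 that passed, where 10.3% of all genes tested were lower. Grxcr1, a glutaredoxin domain protein that sets stereocilium diameter, was at 5.93, 4.99, 6.81 and 7.32 in otospheres and at 9.19, 8.66 and 9.78 in CSE. Otospheres were lower by -2.95 ± 0.52, or 7.71-fold (limma adjusted p = 0.00761), without overlap, and no ESC array had the probe well above background. Clic5, a chloride channel-like protein at the base of the stereocilia, had its OS samples at 8.68, 8.5, 11.18 and 11.34 and CSE at 12.26, 11.37 and 12.25. Fscn2, an actin crosslinker, had OS samples at 5.82, 5.24, 7.08 and 7.78 and CSE at 8.26, 8.15 and 8.88. In both genes all otospheres lay below all CSE samples, but the OS samples were spread widely, and the differences of -2.03 ± 0.73 (limma adjusted p = 0.128) and -1.95 ± 0.55 (0.0561) did not pass. Xirp2, an actin-binding repair protein, was at -0.92 ± 0.28 (0.0775), also without overlap. Strc, which makes the connectors along the bundle's top, was at -0.79 (adjusted p = 0.451).

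The remaining bundle genes did not pass, and their intervals were wide and spanned 0. Espin (Espn), the main actin crosslinker of stereocilia, differed by -0.03 with an interval of -1.88 to 1.82. Ptprq, a phosphatase of the bundle's shaft connectors, differed by -0.26 (-1.83 to 1.31). Triobp, which bundles the rootlets, differed by -0.15 (-1.28 to 0.99). Plastin 1 (Pls1), another crosslinker that is also made in gut epithelium, differed by 0.68 (-0.44 to 1.80). Eps8, a capping protein at the tips, differed by 0.38 (-0.44 to 1.21). These 5 were well above background on all 6 OS arrays, and in each the OS and CSE samples overlapped.

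Of the 7 genes of the transduction channel complex, Cib2 was lower in otospheres and 6 did not pass, where 10.3% of all genes tested were lower. Cib2, a calcium- and integrin-binding partner of the channel, was at 11.74, 11.25, 12.86 and 13.62 in otospheres and at 14.49, 14.47 and 14.84 in CSE, without overlap. The difference was -2.23 ± 0.57, or 4.70-fold (limma adjusted p = 0.0388). Lhfpl5, which ties protocadherin 15 to the channel, was at 7.68, 6.58, 9.25 and 10.29 in otospheres and 10.89, 10.704 and 11.68 in CSE. All its OS samples lay below CSE, yet the OS samples spanned more than the gap, and the difference of -2.64 ± 0.81 did not pass (adjusted p = 0.0750). Tmie, a further channel subunit, differed by -0.86 ± 0.40 (adjusted p = 0.249), and Tomt, needed to bring Tmc proteins to the bundle, by -0.73 ± 0.38 (0.327).

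The pore-forming genes Tmc1 and Tmc2 did not pass between otospheres and CSE. Tmc1 was at 6.89, 6.38, 8.24 and 7.88 in otospheres and at 7.61, 7.55 and 8.08 in CSE. OS4 and OS5 lay above every CSE sample, OS6 lay among them and OS1-3 below all of them, and the difference was -0.40 with an interval of -1.35 to 0.55. Tmc2, the neonatal pore gene, differed by 0.03 (-0.33 to 0.38), with mean log2 signals of 6.05 in otospheres, 6.02 in CSE and 6.11 in ESCs. Loxhd1, a stereocilium membrane protein, was as flat on its brightest probe, with means of 8.17, 8.20 and 8.23 in the same order. Neither gene passed in CSE against ESCs on its brightest probe. The dimmer Loxhd1 probes were not as flat, with means of 5.90, 6.81 and 5.34 and of 5.38, 5.66 and 4.98 in that order. They did not pass between otospheres and CSE (limma adjusted p = 0.0969 and 0.586).

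The tip link and Usher genes held 4 lower genes of 8, where 10.3% of all genes tested were lower. Harmonin (Ush1c), the scaffold under the upper tip link, was at 8.38, 8.37, 10.06 and 9.95 in otospheres, at 12.27, 13.29 and 12.62 in CSE and at 7.89 and 7.44 in ESCs. Otospheres were lower than CSE by -3.54 ± 0.48, or 11.6-fold (limma adjusted p = 0.00221). Adgrv1, the giant adhesion receptor of the ankle links, was at 6.03, 5.41, 6.76 and 6.61 in otospheres and at 8.84, 8.24 and 8.83 in CSE, lower by -2.43 ± 0.34 (adjusted p = 0.00242). Neither gene overlapped between the groups. Whirlin (Whrn), a scaffold of the ankle link and of the stereocilium tip, was at 9.03, 8.98, 8.79 and 8.91 in otospheres and at 10.25, 10.42 and 10.46 in CSE. Its difference of -1.45 ± 0.27 passed (adjusted p = 0.0101), and its OS samples were close together.

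The tip link is built of a pair of cadherins. Cdh23 forms the upper part of the link and Pcdh15 the lower part. Cdh23 was at 4.88, 4.62, 5.15 and 5.00 in otospheres and at 6.42, 6.98 and 6.20 in CSE, and no OS or ESC array had it well above background. CSE was at least 2.93-fold higher than otospheres, with a limma adjusted p of 0.00201. Cdh23 passed the filter on all 3 CSE arrays, on 1 OS array and on no ESC array. It was kept through CSE, so the filter favoured this call, which lends no support of its own. Pcdh15 was well above background on all 6 OS arrays, at 7.55, 6.97, 8.72 and 8.57, and at 9.03, 8.16 and 9.31 in CSE. The groups overlapped, and the difference was -0.88 with an interval of -1.91 to 0.14. Clarin 1 (Clrn1), a small membrane protein of Usher syndrome type 3, was at 5.37, 5.37, 6.27 and 6.87 in otospheres and 7.01, 7.05 and 7.65 in CSE. It did not overlap but did not pass (-1.27 ± 0.38, adjusted p = 0.0688). The scaffolds Ush1g and Pdzd7 differed by -0.09 (-0.73 to 0.55) and -0.04 (-0.79 to 0.71).

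The synapse and calcium genes held the largest differences in both directions. Of these 9 genes, 6 were lower and 1 was higher, where 10.3% and 7.17% of all genes tested were. Pvalb, a calcium buffer of hair cells and of spiral ganglion neurons, was at 9.5, 9.33, 10.09 and 10.88 in otospheres, at 13.93, 13.73 and 13.56 in CSE and at 9.27 and 8.80 in ESCs. Otospheres were 13.8-fold below CSE (-3.79 ± 0.35, limma adjusted p = 0.000358), and OS1-3 lay just above both ESC samples. Ocm, a close relative of parvalbumin and the buffer of outer hair cells, was at 9.97, 11.58, 11.91 and 12.02 in otospheres, at 8.06, 6.97 and 8.88 in CSE and at 6.54 and 6.53 in ESCs. Here every otosphere lay above every CSE sample, and otospheres were 10.6-fold higher (3.40 ± 0.56, adjusted p = 0.00545).

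A second probe of each of these genes gave the same direction between otospheres and CSE. The dimmer Pvalb probe differed by -4.32 ± 0.66 (limma adjusted p = 0.00377) and the dimmer Ocm probe by 3.1 ± 0.53 (0.00626). Against ESCs the Pvalb probes parted: the brighter one differed by 0.92 (0.131) and the dimmer one, at 4.73 and 4.56 in ESCs and 6.07 to 9.16 in otospheres, was higher in otospheres by 2.95 (0.0172). Within the first slide Ocm differed between otospheres and CSE by 3.26 and within the second by 3.09. Oncomodulin is also released by macrophages in injured nerve tissue. Of 7 macrophage genes measured, a list written after the Ocm values were seen, 1 was higher in otospheres (Cd14, by 5.50, adjusted p = 0.00272) and 4 were lower (Adgre1, Csf1r, Mrc1 and Fcer1g). Among all genes tested, 7.17% were higher and 10.3% were lower. The summed linear signal of the 7 macrophage genes was 14100 to 27200 in otospheres and 10600 to 31400 in CSE. Of these genes, Mrc1 was well above background on no OS array. Their part in the Ocm difference was not tested.

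**Figure D3:**
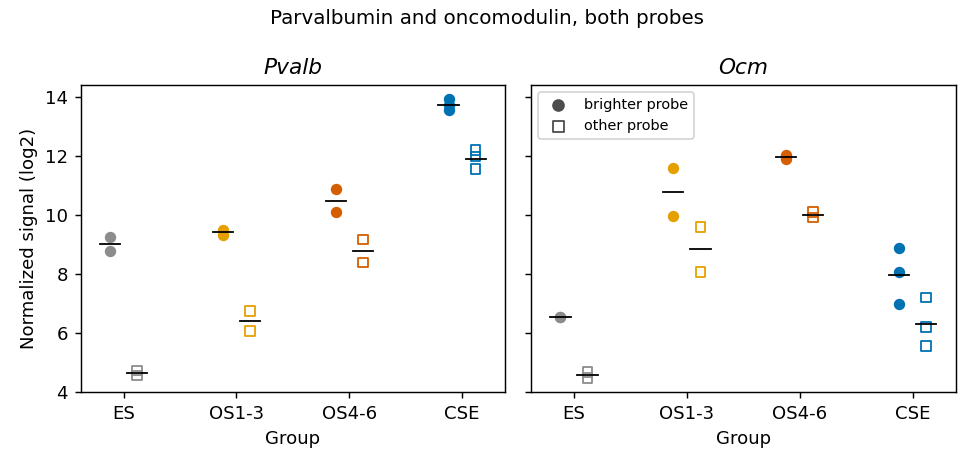
Normalized log2 signal of Pvalb (left) and Ocm (right) in each sample by group, for the brighter probe (filled circles) and the other probe (open squares), with the group mean as a bar. Both Pvalb probes put CSE highest, and both Ocm probes put all 4 otosphere samples above all 3 CSE samples.

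Both subunits of the efferent receptor were lower in otospheres. Chrna10 was at 8.25, 7.47, 9.77 and 10.20 in otospheres and at 11.42, 11.31 and 11.96 in CSE, a difference of -2.64 ± 0.60 (limma adjusted p = 0.0236). Chrna9 was at 7.63, 7.07, 8.86 and 9.21 in otospheres and at 10.47, 10.32 and 10.80 in CSE, a difference of -2.34 ± 0.52 (0.0210). In ESCs Chrna10 was at 6.24 and 6.01, below every otosphere, and Chrna9 was at 9.31 and 10.42, above every otosphere.

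The calbindins, 2 further calcium buffers, were lower as well. Calb1 was at 6.02, 4.75, 6.79 and 6.97 in otospheres and at 8.58, 8.15 and 8.62 in CSE, a difference of -2.32 ± 0.48 (limma adjusted p = 0.0154). Calb2, calretinin, which inner hair cells and spiral ganglion neurons both make, was at 7.15, 7.37, 7.17 and 7.36 in otospheres and at 8.48, 9.07 and 8.32 in CSE. Its difference was -1.36 ± 0.20 (0.00293), and its OS samples were close together. Otoferlin (Otof), the calcium sensor of vesicle release, was lower by -1.26 ± 0.34 (adjusted p = 0.0491), with OS samples from 9.90 to 11.33 and CSE samples from 11.73 to 12.30, and it lost the call in 15 of 22 alternative settings. Slc17a8, the vesicular glutamate transporter, differed by -0.48 (-0.99 to 0.04). Cacna1d, the channel for calcium entry, differed by -0.46 (-0.84 to -0.09, adjusted p = 0.122) and did not overlap.

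Promoter sequence is shown for 4 of these genes: the pair of calcium buffers that went in opposite directions, and Myo15 and Chrna9, which were lower in otospheres and hold an E-box, the class of motif bound by basic helix-loop-helix factors such as Atoh1. RefSeq windows of mouse build GRCm38.p6 were available for 31 of the 39 genes, 39 windows in all, some genes having more than 1 start site, and the 250 bases before each start site were searched on both strands. The motif CAGCTG, which reads the same on both strands, was in 9 of the 39 windows (23.1%), where 13% of all 32851 windows held it. The genes were Myo15, Espn, Lhfpl5, Tmie, Chrna9, Cacna1d, Tomt and Pdzd7. The motif CAGATG or its reverse CATCTG was in 2 windows (5.13%), of Slc17a8 and Clrn1, where 14.4% of all windows held it. These are matches of letters, and the arrays do not bear on binding at them. In Myo15 the motif begins 82 bases before the start site and in Chrna9 13 bases before it. Each sequence reads 5′ to 3′ toward the start site, in lower case with CAGCTG in capitals, and Pvalb has a window for each of its 2 start sites.
Pvalb, first window, chr15:78206401-78206650, minus strand: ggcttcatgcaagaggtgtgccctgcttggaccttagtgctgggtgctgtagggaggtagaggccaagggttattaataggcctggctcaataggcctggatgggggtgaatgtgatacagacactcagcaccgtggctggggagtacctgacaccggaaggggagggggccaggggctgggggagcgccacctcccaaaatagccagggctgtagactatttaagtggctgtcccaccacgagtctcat
Pvalb, second window, chr15:78204238-78204487, minus strand: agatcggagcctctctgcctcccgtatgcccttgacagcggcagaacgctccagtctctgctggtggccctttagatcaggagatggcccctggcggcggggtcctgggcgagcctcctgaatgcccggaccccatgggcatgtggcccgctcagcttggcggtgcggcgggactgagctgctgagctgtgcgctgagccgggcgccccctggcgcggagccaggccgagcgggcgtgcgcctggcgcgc
Ocm, chr5:144050610-144050859, minus strand: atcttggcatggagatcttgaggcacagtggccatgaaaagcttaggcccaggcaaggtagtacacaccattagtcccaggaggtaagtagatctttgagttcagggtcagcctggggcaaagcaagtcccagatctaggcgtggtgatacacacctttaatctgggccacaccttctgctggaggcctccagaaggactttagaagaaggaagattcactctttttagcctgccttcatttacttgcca
Myo15, chr11:60469089-60469338, plus strand: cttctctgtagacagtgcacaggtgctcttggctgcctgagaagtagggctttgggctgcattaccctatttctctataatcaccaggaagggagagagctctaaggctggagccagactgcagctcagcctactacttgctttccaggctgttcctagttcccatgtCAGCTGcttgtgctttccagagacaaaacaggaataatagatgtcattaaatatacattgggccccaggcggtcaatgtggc
Chrna9, chr5:65966874-65967123, plus strand: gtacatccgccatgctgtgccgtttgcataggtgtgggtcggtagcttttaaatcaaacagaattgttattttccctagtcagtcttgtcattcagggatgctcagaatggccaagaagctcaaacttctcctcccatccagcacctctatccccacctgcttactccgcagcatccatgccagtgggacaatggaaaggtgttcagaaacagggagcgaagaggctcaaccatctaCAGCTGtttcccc
The windows of Pvalb and Ocm hold neither motif, while those of Myo15 and Chrna9 hold 1 copy each. Myo15 and Chrna9 were shown because they were lower in otospheres and hold the motif. The other 6 genes with CAGCTG, Espn, Lhfpl5, Tmie, Cacna1d, Tomt and Pdzd7, were not called between otospheres and CSE.

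Of the 39 genes, 14 had more than 1 probe, 33 probes in all, and in 6 of those genes the probes did not share a call between otospheres and CSE. Of all 47997 kept probes, 6.19% were lower in otospheres and 4.84% were higher. The second Triobp probe was lower in otospheres (-1.08, limma adjusted p = 0.0164) where the brighter one was not, and the same held for Cacna1d (-1.19, 0.0162) and for 1 of 6 Pcdh15 probes (-0.61, 0.0346). In the other direction, the dimmer probes of Ush1c, Whrn and Adgrv1 did not pass. The second Ush1c probe stood at 10.66 in CSE2 and at 7.02 and 6.9 in the other two CSE samples. Array probes of 1 gene can sit on different transcripts, and which transcripts each one reads was not tested.

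The wider hair cell inventory was mixed. Of 32 further bundle, transduction and synapse genes with a probe, 10 were lower in otospheres, 6 were higher and 16 did not pass. Among all genes tested, 10.3% were lower and 7.17% were higher. The median difference of the 32 genes was -0.02. The largest differences were in Atp2b2, the calcium pump of stereocilia (-2.84 ± 0.41, limma adjusted p = 0.00295), and Grxcr2, a partner of Grxcr1 (-2.59 ± 0.47, 0.00810). Among the 6 that were higher were Myh9, a non-muscle myosin of many cell types (2.04 ± 0.33, 0.00487), and Msrb3, a methionine repair enzyme (1.66 ± 0.45, 0.0490). Ezr, Tprn, Ildr1 and Atp8b1 were also higher, and these 6 were named after their values were seen.

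Other cell types of the cochlea moved between the same groups, where 10.3% of all genes tested were lower in otospheres and 7.17% were higher. Of 8 hair cell regulators, 4 were lower in otospheres (Atoh1, Lhx3, Insm1 and Rasd2) and none was higher, and their summed linear signal was 1790 to 7100 in otospheres and 16900 to 26400 in CSE. Of 12 supporting cell genes 11 were lower (43600 to 65700 against 221000 to 266000), and of 10 spiral ganglion neuron genes 7 were lower (7290 to 14900 against 28000 to 67000). The supporting cell gene Prox1 was well above background on no OS array. Schwann cell genes were lower in 3 of 6 and higher in 1, Mbp (19300 to 30000 against 48900 to 65500), endothelial genes were lower in 3 of 6 (7430 to 10900 against 15500 to 18700), and 1 of 6 mesenchymal genes was lower (35600 to 140000 against 155000 to 251000). Erythroid genes were lower in 5 of 6 (276 to 391 against 125000 to 258000). Prox1, Hbb-bt, Hbb-bs and Alas2 were well above background on the 3 CSE arrays alone, so the filter on dim probes favoured their calls. Of 6 pluripotency genes, 1, Esrrb, was lower in otospheres than in CSE. The part of these lists in the differences of the 39 genes was not tested.

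Against ESCs, 11 of the 39 genes were higher in otospheres and 1, Ush1g, was lower, where 18.4% and 20.4% of all genes tested were. CSE was higher than ESCs for 25 and lower for Ush1g, where 20.9% and 20% of all genes were, and 13 did not pass. These comparisons share the ESC samples. The genes higher in otospheres than in ESCs were Myo6 (2.05, limma adjusted p = 0.00877), Ptprq (0.0124), Clic5 (3.61, 0.0105), Pls1 (2.63, 0.00736), Tmc1 (0.00668), Tmie (1.69, 0.0212), Cib2 (2.05, 0.0444), Pcdh15 (0.00284), Ocm (4.83, 0.000618), Calb2 (0.000240) and Chrna10 (2.80, 0.0139). Ptprq, Tmc1, Pcdh15 and Calb2 were well above background on no ESC array, and otospheres were at least 6.29-fold, 3.90-fold, 5.93-fold and 3.68-fold higher there. Ush1g was lower in otospheres than in ESCs by -1.33 (0.0133). The count of 11 became 19 without OS3, 8 without ES1 and 5 without ES2.

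Set side by side, the 2 comparisons placed the genes at different levels. Cib2, Calb2 and Chrna10 were lower in otospheres than in CSE and higher than in ESCs. Another 11 genes were lower than in CSE with no call against ESCs: Myo7a, whose mean was 8.0 in otospheres and 7.80 in ESCs, Myo15, Grxcr1, Cdh23, Ush1c, Whrn, Adgrv1, Otof, Pvalb (by its brighter probe), Calb1 and Chrna9. The 7 genes that were higher than in ESCs with no call against CSE were Myo6, Ptprq, Clic5, Pls1, Tmc1, Tmie and Pcdh15, and 16 passed in neither comparison. All 39 were well above background on the 3 CSE arrays, 28 on all 6 OS arrays and 10 on some of them, and 14 were so on no ESC array. In the F-test over the 3 groups 29 of 39 passed, where 48.7% of all genes did. Their means followed most closely a pattern of CSE alone high for 15, of otospheres and CSE high for 11, and 1 each for otospheres (Ocm), ESCs (Ush1g) and ESCs with CSE (Chrna9). The shares of all genes with these joint calls, background counts and patterns were not counted. These counts therefore describe the 39 genes alone.

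The 2 sets of otospheres stood at different levels in most of these genes. In 31 of the 39 both samples of OS4-6 lay above both samples of OS1-3, where 32.3% of all genes did, and in 2, Eps8 and Whrn, both lay below, where 21.7% did. The median difference, OS4-6 minus OS1-3, was 1.19 on the log2 scale against 0.07 for all genes, and 36 of 39 were above 0. In a limma fit with a mean for each set, 25 genes were higher in OS4-6 at an unadjusted p under 0.05, where 9.91% of all genes were, and 1 was lower, Eps8 (-1.12), where 7.88% were. After adjustment over all probes 1 passed, Clic5, where 0.097% of all genes were higher, and none was lower, where 0.0808% were. Within the otospheres this split and the slide cannot be told apart. With a slide term taken from the CSE and ESC samples, a step added after the data were seen, the median was 0.98 (all genes 0.05). The ESC part of that term also holds the difference between the 2 ESC lines. In that fit 19 of the 39 were higher and 1 lower at an unadjusted p under 0.05 (6.2% and 5.25% of all genes), and none passed after adjustment.

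Clic5 was 2.67 ± 0.34 higher in OS4-6 (limma adjusted p = 0.0499), at the threshold, with 8.68 and 8.5 in OS1-3 and 11.18 and 11.34 in OS4-6. The call was lost in 13 of 21 alternative settings, among them the slide term (2.62 ± 0.48, adjusted p = 0.441) and those that left out ES1, ES2, OS3, OS4, OS5, OS6, CSE1 or CSE3. The next 4 by size did not pass. Lhfpl5 had means of 7.13 and 9.77, a difference of 2.64 ± 0.60 (adjusted p = 0.114), and Espn had means of 8.25 and 10.73, a difference of 2.48 ± 0.69 (0.171). Chrna10 had means of 7.86 and 9.98 (2.13 ± 0.34, 0.0651), and Ptprq had means of 6.98 and 9.09 (2.11 ± 0.59, 0.172). In Espn and Ptprq the OS4-6 mean lay above the CSE mean and the OS1-3 mean below it, though neither set differed from CSE past the threshold. Pvalb differed by 1.07 ± 0.31 on its brighter probe and by 2.37 on the other (adjusted p = 0.0562). Calb2 (0.01 ± 0.27) and Slc17a8 (-0.02 ± 0.31) had differences near 0.

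Each set was also compared with CSE on its own, in the same limma fit, a step added after the data were seen. In OS1-3, 23 of the 39 genes were lower than in CSE, where 8.65% of all genes were, and Ocm was higher, where 5.82% were. In OS4-6, 11 were lower, where 10.3% of all genes were, and 2 were higher, Pls1 and Ocm, where 8.68% were. The 11 were lower in both sets: Myo7a, Grxcr1, Cdh23, Ush1c, Whrn, Adgrv1, Pvalb, Calb1, Calb2, Chrna9 and Chrna10. Pls1 was 1.5 higher than CSE in OS4-6 (limma adjusted p = 0.0203) and differed by -0.13 in OS1-3. Ocm was higher by 2.81 in OS1-3 (0.0234) and by 4.0 in OS4-6 (0.00430), and its difference between the sets did not pass (1.19 ± 0.65, adjusted p = 0.593). The largest gap from CSE was that of Ush1c in OS1-3, -4.35 (0.000260), and it was -2.72 in OS4-6 (0.00138).

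**Figure D4:**
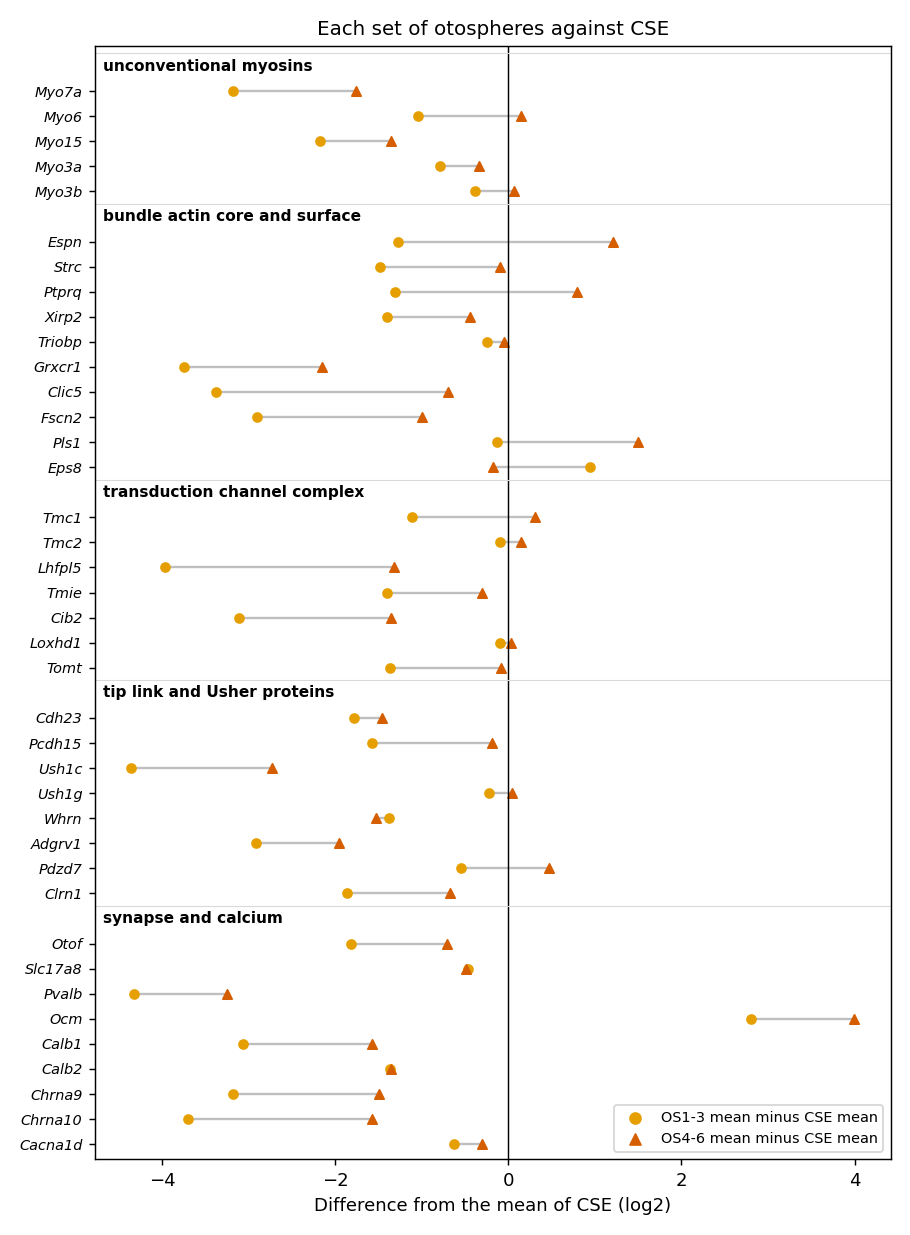
Difference from the mean of the 3 CSE samples in log2 signal for OS1-3 (light orange circles) and OS4-6 (dark orange triangles), 2 samples each, joined by a line for each gene. The triangles lie to the right of the circles in 36 of 39 genes, Eps8 being the clearest exception.

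The slides also held CSE and ESC arrays. The ESC samples of the 2 slides were different lines, so slide and line cannot be told apart there. The same step between slides, second minus first, had a median over the 39 genes of 0.36 in CSE (1 sample against 2, 29 genes above 0) and of -0.17 in ESCs (1 sample against 1, 12 genes above 0), against 0.07 and -0.05 for all genes. Whether the step in otospheres differed from that in CSE was tested in a limma fit with a mean for each group on each slide. None of the 39 passed after adjustment, where 0% of all genes did, and 11 had an unadjusted p under 0.05, where 9.26% of all genes did. With 1 CSE sample on the second slide this test has little precision. The smallest adjusted p among the 39 was 0.791, in Myo7a and others, and the largest step difference was 2.50 in Ptprq. Other lists moved along the same split. Of all genes, 9.91% were higher in OS4-6 and 7.88% were lower at a limma unadjusted p under 0.05. Hair cell regulators were higher in OS4-6 in 5 of 8 at an unadjusted p under 0.05, with a summed linear signal of 4670 to 7100 against 1790 to 2470 in OS1-3. By the same unadjusted rule, mesenchymal genes were lower in 5 of 6 (35600 to 55600 against 88700 to 140000), supporting cell genes were higher in 3 of 12 (43600 to 65700 against 45900 to 49900), and the other hair cell genes were higher in 12 of 32 and lower in 1. None of the genes on these lists passed after adjustment. The part of these lists in the split was not tested.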

How the data were processed

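Cy3-labelled RNA of 11 samples had been hybridized to single-colour arrays of 62976 spots. The authors deposited scanner files with the median intensity of each spot and of its background on a linear scale, read with Feature Extraction version 10.7.3.1, and a processed intensity that the software background-subtracted. They also deposited a table of log2 values, used as an alternative, for which their methods give background correction and quantile normalization in limma. A version of limma and a genome build are not given in the sources used here. In R 4.3.3, the background of median intensities was corrected by the normexp method of limma 3.58.1 with offset 16, and values were converted to log2, quantile-normalized and averaged over the spots of a probe, without control and outlier spots. The offset compresses differences of dim probes. A probe was kept (47997 of 55681) where 2 or more arrays showed it 10% or more above the 95th percentile of the 308 negative controls. The published filter required 3 arrays, more than the 2 ESC arrays used here. The study's own ESC group also held arrays from other series, which were not used here.

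Probes were named through RefSeq transcripts (26762 matched), and a gene took its brightest probe. Samples were grouped by their titles. The 3 groups shared 1 limma fit, with OS1 and OS2, and OS4 and OS5, averaged, and Benjamini-Hochberg adjustment over the kept probes. Fits with a mean for each otosphere set, or for each group on each slide, gave the other comparisons. Where no array of a group was well above background, the fold is a bound: the bright group's mean against the dim group's mean of, per array, the higher of its own signal and the lowest signal among probes well above background. Intervals are 95%, unadjusted for the number of genes. Full values are given for genes past the threshold in otospheres against CSE and for the 5 largest differences between otosphere sets, and values per sample for those with the largest differences in each role. The members, roles and other lists were chosen with earlier results of these data known, and the macrophage list after values were seen. The number of arrays limits the precision. Alternatives were the offset, scaling to the 75th percentile, the authors' table, the filter, single arrays as samples, slide or replicate number as a block, the median over a gene's probes, the methods' one-way test, and leaving out samples. The fits were tested on simulated data, where the fit of the slide step called none of the changed probes.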

Additional observations from a re-analysis of the deposited data

How the results depend on the processing

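Of the 15 genes called between otospheres and CSE, 6 stayed past the threshold in every alternative listed in advance. They were Myo7a, Grxcr1, Pvalb, Ocm, Calb2 and Cdh23, whose call was favoured by the way it was kept. Another 9 lost the call in at least 1 alternative (Myo15, Cib2, Ush1c, Whrn, Adgrv1, Otof, Calb1, Chrna9 and Chrna10). None of the 15 changed sign. Of the 24 without a call, 9 passed in at least 1 alternative and 15 in none. The cause of these changes was not tested.

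Counts that moved by over 1.5 times were as follows. Genes higher in OS4-6 than in OS1-3 numbered 0 with offset 0, with 75th percentile scaling, with the authors' log2 table and without the filter, against 1 in the report, and 19 with every array as a sample, when 1 was lower. Genes lower in otospheres than in ESCs numbered 2 with every array as a sample and with slide as a block. Other hair cell genes higher in otospheres than in CSE numbered 3 with 75th percentile scaling and 3 for OS1-3 alone. The OS1-3 samples alone gave 23 genes lower than CSE, and OS4-6 alone gave 2 higher, in steps added after the data were seen.

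Leaving out samples gave ranges of 8 to 18 genes lower and 1 to 1 higher in otospheres than in CSE, 5 to 19 higher and 0 to 2 lower in otospheres than in ESCs, 21 to 25 higher and 0 to 1 lower in CSE than in ESCs, 0 to 3 higher and 0 to 1 lower in OS4-6 than in OS1-3, 0 to 0 with a different slide step, 22 to 30 in the F-test, and 6 to 10 lower and 3 to 6 higher among the other hair cell genes.

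Replicate numbers were not taken to pair the samples. The deviations of OS1 and CSE1 correlated at 0.356, of OS2 and CSE2 at -0.341 and of OS3 and CSE3 at -0.393. OS3 and CSE3 lay on different slides. These few values cannot decide whether otospheres and CSE shared dissections. With the replicate block, 2 genes were higher in otospheres than in CSE (Ocm and Eps8), 0 lower in CSE than in ESCs and 2 other hair cell genes higher in otospheres, and the 14 lower genes kept the call while 7 joined them. That block could not be fitted for OS4-6 against OS1-3, whose numbers do not overlap, or for the slide step, and the slide step could not be fitted without CSE3. With a slide term from CSE and ESCs, added after the data were seen, 0 genes were higher in OS4-6.

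The sign of OS minus CSE changed only in genes without a call. Over the arrays left out in turn it ran from -0.56 to 0.13 for Myo3b, -0.54 to 0.65 for Espn, -0.77 to 0.26 for Ptprq, -0.53 to 0.52 for Triobp, -0.042 to 0.080 for Tmc2, -0.20 to 0.10 for Loxhd1, -0.32 to 0.13 for Ush1g and -0.26 to 0.24 for Pdzd7. With 75th percentile scaling it was 0.040 for Triobp and -0.14 for Tmc2, with slide as a block -0.0051 for Tmc2, with the replicate block -0.098 for Pls1 and -0.10 for Tmc2, with every array as a sample 0.055 for Espn, with offset 50 0.00024 for Pdzd7, and with the median over probes 0.071 for Espn and 0.036 for Pdzd7. No scaling moved the median over all probes by more than 0.1. The arrays give no read depth, and dim probes near background limit small differences.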
